A study of Mus musculus with 9 samples.

Results

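Transcript levels of 40 genes of ribosome biogenesis and the nucleolus were followed in ear skin of mice treated with anisomycin, imiquimod or vehicle. The genes were listed by name, with earlier results of these data known. A gene was taken as measured when a probe set of the array (a group of oligonucleotides that together read 1 transcript) carried its symbol and no other. By that rule 39 of the 40 listed genes were found among the 19938 genes tested, and Noc2l was not analysed here. Where a gene had several probe sets, which held for Fbl and Wdr12, the probe set that was brightest on average across all 9 arrays was used. Each of the 3 groups held 3 arrays of total RNA from whole ear skin of female C57BL/6 mice, 7 to 9 weeks old. Anisomycin, an antibiotic that blocks protein synthesis on ribosomes, was painted on as an ethanol solution of 2 mg/ml, 10 µl per ear side once daily for 5 days. Imiquimod, a ligand of Toll-like receptor 7, was given as 10 mg of a 5% cream on both sides of an ear once daily for 5 days. The remaining group is labelled as vehicle treatment only, so which vehicle it received and for how long are not known, and ethanol and cream base have no separate control here. No allele or transgene is named for any group. The labels do not say whether the arrays of a group came from separate mice, and p-values measure the spread between these samples only. Whole ear skin mixes epidermis, dermis, vessels, muscle, fat, cartilage and infiltrating cells, and in such a mixture more cells of a type and more RNA per cell cannot be told apart.

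Ribosomes are assembled in the nucleolus. RNA polymerase I transcribes a long precursor RNA there, small nucleolar ribonucleoproteins (snoRNPs) guide its chemical modification, and large sets of assembly factors cut and fold it into the small and the large ribosomal subunit. Growing and dividing cells need more of these factors, and many of their genes are known targets of the transcription factor Myc. In skin the pathway is known to be active in proliferating keratinocytes.

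Nearly all of these genes were higher in treated than in vehicle ears. Against vehicle, 38 of the 39 measured genes rose with anisomycin and none fell, by limma's moderated test at a Benjamini-Hochberg adjusted p under 0.05 over all 19938 genes. Of all genes 45.6% were called in that comparison, 22.3% higher and 23.3% lower. With imiquimod 38 of 39 rose and none fell, where 42.7% of all genes were called, 20.4% higher and 22.4% lower. Gar1 missed the threshold in each comparison. Both comparisons use the same vehicle arrays and are not independent of each other. The median log2 difference over the 39 genes was 0.92 for anisomycin, with values from 0.16 to 1.64, and 0.85 for imiquimod, with values from 0.18 to 1.42. Over all genes tested the median was -0.0097 for anisomycin and -0.026 for imiquimod. A difference of at least 1 on the log2 scale, a doubling, was reached by 16 of the 39 with anisomycin and by 11 with imiquimod, against 5.1% and 4.26% of all genes. All 3 anisomycin arrays lay above all 3 vehicle arrays for 38 of the 39 genes, against 24.9% of all genes. All 3 imiquimod arrays did so for all 39, against 24.4%.

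**Figure D1:**
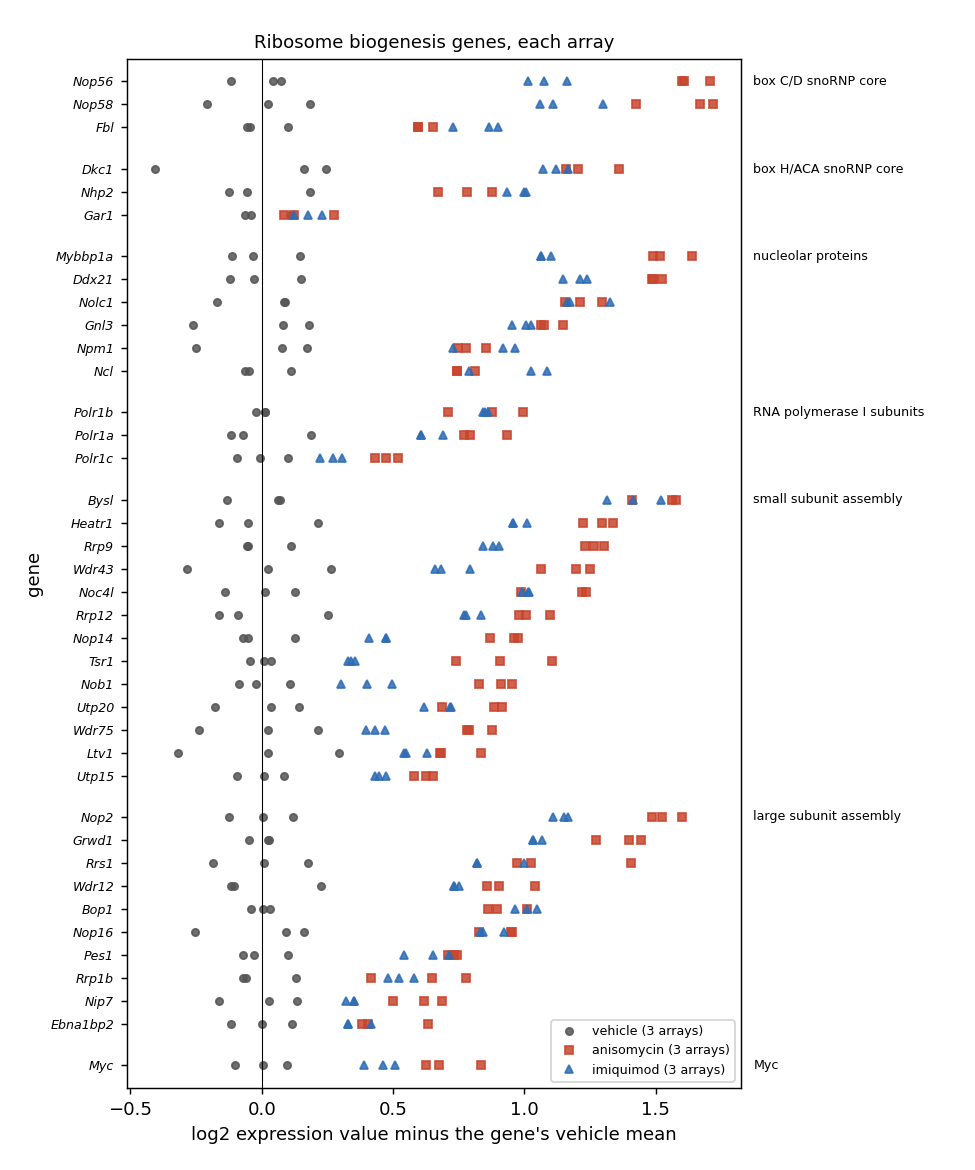
Log2 expression value of each measured gene on each of the 9 arrays, minus the mean of that gene's 3 vehicle arrays, with genes sorted by role (rows). Circles are vehicle, squares anisomycin and triangles imiquimod arrays, and vehicle lies left of both treatments for every gene shown except Gar1, where anisomycin and vehicle overlap.

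The arrays of a group lay close together. The median over the genes of the value minus the gene's vehicle mean was 0.91, 0.93 and 0.90 on the 3 anisomycin arrays and 0.84, 0.84 and 0.78 on the 3 imiquimod arrays. On the vehicle arrays it was 0.0069, -0.11 and 0.12. Vehicle replicate 2 was the lowest of its group for 28 of the 39 genes and vehicle replicate 3 the highest for 30. The median standard deviation of a gene between arrays was 0.132 in vehicle, 0.0789 in anisomycin and 0.0479 in imiquimod ears, so vehicle was the least uniform group for these genes. Over all genes the medians were 0.0976, 0.0782 and 0.0595, in the same order of groups.

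The box C/D snoRNPs guide methylation of ribosomal RNA, and of their 3 listed core proteins Nop56 and Nop58 were among the largest rises with anisomycin, while Fbl lay below the median of the 39 genes with either treatment. Nop56, a scaffold protein of these particles, measured 8.63, 8.48 and 8.67 in vehicle ears, 10.30, 10.19 and 10.20 with anisomycin and 9.60, 9.75 and 9.67 with imiquimod, all as log2 expression values. The groups did not overlap, and the rise was 3.12-fold with anisomycin (log2 difference 1.64, SE 0.067, limma adjusted p = 1.91e-07) and 2.12-fold with imiquimod (1.08, SE 0.067, adjusted p = 3.25e-06). Its partner and paralog Nop58 measured 7.08, 6.69 and 6.93 in vehicle ears, 8.62, 8.57 and 8.33 with anisomycin and 8.01, 8.20 and 7.96 with imiquimod. The 3 groups were again apart, with log2 differences from vehicle of 1.60 (SE 0.12) and 1.15 (SE 0.12). Fibrillarin (Fbl), the methyltransferase of the same particle, measured 7.68, 7.67 and 7.83 in vehicle, 8.32, 8.38 and 8.32 with anisomycin and 8.63, 8.59 and 8.46 with imiquimod ears. Here the imiquimod arrays were the highest, and Fbl rose by 0.61 (SE 0.064) with anisomycin and by 0.83 (SE 0.064) with imiquimod. A second probe set of Fbl gave 0.48 and 0.56.

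The box H/ACA snoRNPs guide the conversion of uridine to pseudouridine, and their genes moved unequally. Dyskerin (Dkc1), the enzyme of the particle, measured 7.54, 6.89 and 7.46 in vehicle ears, 8.45, 8.50 and 8.66 with anisomycin and 8.37, 8.42 and 8.46 with imiquimod. Vehicle replicate 2 was well below the other vehicle arrays, and the treated groups overlapped each other. The log2 differences from vehicle were 1.24 (SE 0.15) and 1.12 (SE 0.15), and without vehicle replicate 2 they were 1.04 and 0.91, still called. Nhp2, an RNA-binding subunit, measured 7.47, 7.40 and 7.71 in vehicle ears, 8.19, 8.31 and 8.40 with anisomycin and 8.46, 8.53 and 8.52 with imiquimod, with every imiquimod array above every anisomycin array. It rose by 0.78 (SE 0.085) and 0.98 (SE 0.085). Gar1, a further subunit, measured 7.840, 7.819 and 7.989 in vehicle, 8.004, 8.157 and 7.965 with anisomycin and 8.059, 8.111 and 8.004 with imiquimod ears. Anisomycin overlapped vehicle for this gene, and its differences of 0.16 (SE 0.070, 95% interval 0.0031 to 0.32, limma adjusted p = 0.091) and 0.18 (SE 0.070, interval 0.019 to 0.33, adjusted p = 0.0708) were not called. Both intervals exclude a doubling. Without vehicle replicate 3, or with arrays centred on their medians, Gar1 was called in both comparisons, at log2 differences of 0.21 to 0.23.

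Nucleolar proteins that organise or regulate the process rose in all 6 cases with either treatment. Nucleolin (Ncl), an abundant RNA-binding protein of the nucleolus, measured 9.05, 9.03 and 9.21 in vehicle, 9.84, 9.91 and 9.84 with anisomycin and 10.18, 10.12 and 9.88 with imiquimod ears. Its log2 differences were 0.77 (SE 0.083) and 0.97 (SE 0.083), and the treated groups overlapped through imiquimod replicate 3. Nucleophosmin (Npm1), a chaperone that moves between nucleolus and cytoplasm, rose by 0.79 (SE 0.11) and 0.87 (SE 0.11). The helicase gene Ddx21 measured 8.18, 8.09 and 8.36 in vehicle, 9.73, 9.69 and 9.70 with anisomycin and 9.42, 9.45 and 9.36 with imiquimod ears. It rose 2.83-fold and 2.3-fold, with no overlap among the 3 groups. Mybbp1a, a nucleolar protein that binds Myb and p53, measured 8.47, 8.39 and 8.65 in vehicle ears, 10.01, 10.14 and 9.99 with anisomycin and 9.60, 9.56 and 9.56 with imiquimod, rises of 1.55 (SE 0.072) and 1.08 (SE 0.072). Nolc1, a snoRNP chaperone, rose by 1.22 with each treatment (SE 0.083), and nucleostemin (Gnl3), a GTPase, by 1.09 and 0.99 (SE 0.10).

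All 3 listed RNA polymerase I subunits rose. Polr1b, the second largest subunit, measured 7.85, 7.88 and 7.88 in vehicle, 8.58, 8.75 and 8.87 with anisomycin and 8.72, 8.71 and 8.73 with imiquimod ears, and the treated groups overlapped. Its rises were 0.86 (SE 0.069) and 0.85 (SE 0.069). Polr1a, the largest subunit, rose by 0.83 (SE 0.084) and 0.64 (SE 0.084). Polr1c, a subunit shared with RNA polymerase III, had the smallest rises of the 3, 0.47 (SE 0.060) and 0.27 (SE 0.060).

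All 13 genes of small subunit assembly rose with either treatment, with medians of 0.94 for anisomycin and 0.68 for imiquimod. Bysl, which binds late precursors of the small subunit, rose most in this group. It measured 6.40, 6.59 and 6.60 in vehicle ears, 7.94, 8.11 and 8.09 with anisomycin and 7.94, 8.05 and 7.84 with imiquimod, rises of 2.86-fold and 2.67-fold, and the treated groups overlapped. Genes of the early processome, the large particle that forms on the nascent precursor RNA, followed. Heatr1 measured 7.57, 7.46 and 7.84 in vehicle, 8.96, 8.92 and 8.85 with anisomycin and 8.63, 8.58 and 8.58 with imiquimod ears. Rrp9, a protein of the U3 snoRNP, measured 7.20, 7.04 and 7.03 in vehicle ears, 8.32, 8.39 and 8.35 with anisomycin and 7.93, 7.99 and 7.97 with imiquimod. In both the 3 groups were apart in the order vehicle, imiquimod, anisomycin. Heatr1 rose by 1.29 (SE 0.088) with anisomycin and 0.97 (SE 0.088) with imiquimod, and Rrp9 by 1.27 (SE 0.058) and 0.88 (SE 0.058). The other processome genes gave 1.17 and 0.71 for Wdr43, 1.15 and 1.01 for Noc4l, and 0.94 and 0.45 for Nop14, the partner of Noc4l. Wdr75 gave 0.82 and 0.43, Utp20 0.83 and 0.68, and Utp15 0.62 and 0.45. Rrp12, which acts in export of the subunit, rose by 1.03 and 0.79, and the cytoplasmic export factor Ltv1 by 0.73 and 0.57.

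Nob1 and Tsr1 act late in small subunit maturation and stood well apart between the treatments. Nob1, the endonuclease that makes the final cut of the small subunit RNA, measured 8.14, 8.07 and 8.27 in vehicle, 9.11, 9.07 and 8.98 with anisomycin and 8.46, 8.65 and 8.56 with imiquimod ears. Tsr1, a late factor that resembles a GTPase, measured 7.53, 7.56 and 7.48 in vehicle ears, 8.63, 8.43 and 8.26 with anisomycin and 7.86, 7.88 and 7.85 with imiquimod. Both rose with either treatment, and the groups did not overlap. Nob1 rose by 0.90 (SE 0.071) with anisomycin and 0.40 (SE 0.071) with imiquimod, and Tsr1 by 0.92 (SE 0.082) and 0.34 (SE 0.082).

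All 10 measured genes of large subunit assembly rose, with medians of 0.92 for anisomycin and 0.80 for imiquimod. Nop2, a methyltransferase of the large subunit RNA, measured 7.27, 7.14 and 7.39 in vehicle, 8.87, 8.75 and 8.79 with anisomycin and 8.44, 8.42 and 8.38 with imiquimod ears, rises of 2.9-fold and 2.21-fold. Grwd1, a histone-binding protein also found in large subunit precursors, measured 6.34, 6.35 and 6.27 in vehicle ears, 7.72, 7.59 and 7.76 with anisomycin and 7.35, 7.39 and 7.35 with imiquimod, rises of 1.37 (SE 0.056) and 1.04 (SE 0.056). For both genes the treated groups were also apart from each other, with anisomycin the higher. Pes1, Bop1 and Wdr12 form 1 complex in this step, and each rose. Pes1 rose by 0.73 (SE 0.063) and 0.64 (SE 0.063), Bop1 by 0.92 (SE 0.055) and 1.01 (SE 0.055), and Wdr12 by 0.93 (SE 0.092) and 0.74 (SE 0.092). The other probe set of Wdr12 gave 1.01 and 0.70. Rrs1, which acts in the incorporation of the 5S particle, measured 5.02, 4.85 and 4.66 in vehicle, 6.25, 5.81 and 5.87 with anisomycin and 5.84, 5.66 and 5.66 with imiquimod ears. It rose by 1.13 (SE 0.13) and 0.88 (SE 0.13), with anisomycin replicate 1 the highest array. Nop16 rose by 0.91 and 0.86, Rrp1b by 0.61 and 0.53, Nip7 by 0.60 and 0.34, and Ebna1bp2 by 0.47 and 0.36.

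Myc, the transcription factor on the list, measured 9.67, 9.47 and 9.58 in vehicle ears, 10.40, 10.24 and 10.20 with anisomycin and 9.96, 10.08 and 10.03 with imiquimod. The 3 groups did not overlap. Myc rose 1.64-fold with anisomycin (log2 difference 0.71, SE 0.073, limma adjusted p = 4.05e-05) and 1.37-fold with imiquimod (0.45, SE 0.073, adjusted p = 0.000799). Of the 12 measured genes of the wider Myc network, Myc among them, 4 rose and 4 fell with anisomycin, and 5 rose and 3 fell with imiquimod. Of all genes 22.3% rose and 23.3% fell with anisomycin, and 20.4% rose and 22.4% fell with imiquimod. A list of 12 genes is too short to set against these shares. Mxd1, which competes with Myc for the partner Max, measured 8.10, 7.59 and 8.12 in vehicle, 10.24, 10.24 and 9.98 with anisomycin and 9.40, 9.25 and 9.49 with imiquimod ears. It rose by 2.22 (SE 0.14) and 1.44 (SE 0.14), and its 3 groups did not overlap. The related antagonist gene Mxd4 measured 9.249, 9.516 and 9.442 in vehicle ears, 8.001, 8.224 and 8.199 with anisomycin and 8.335, 8.503 and 8.486 with imiquimod, changes of -1.26 (SE 0.089) and -0.96 (SE 0.089). Mycl, a paralog of Myc, was also lower, at -1.02 and -0.71 on the log2 scale (SE 0.14). Mlx, a relative of the partner Max, rose by 0.57 and 0.61 (SE 0.075).

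**Figure D2:**
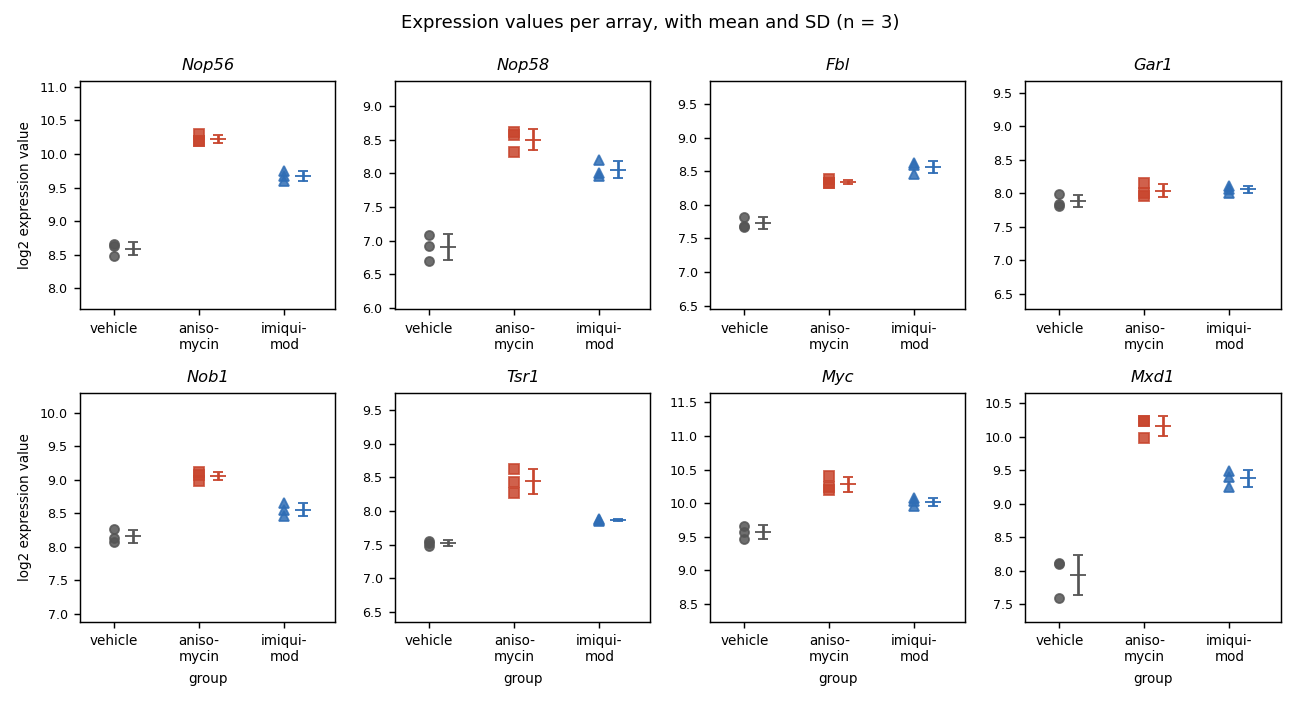
Log2 expression values (vertical axis, 3.4 units high in each panel) of 8 genes in vehicle, anisomycin and imiquimod ears, 3 arrays per group as points with their mean and SD beside them. Nop56, Nop58, Nob1, Tsr1, Myc and Mxd1 are highest with anisomycin, Fbl is highest with imiquimod, and Gar1 differs little among the groups.

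The treatments were then compared with each other directly, a difference in which the vehicle arrays enter only the estimate of spread. Of the 39 genes 16 were higher with anisomycin and 1 with imiquimod by limma at an adjusted p under 0.05, where 20.4% of all genes were called, 10.8% higher and 9.59% lower with anisomycin. The anisomycin mean was above the imiquimod mean for 32 of the 39 genes, against 55% of all genes, and the median log2 difference was 0.19, against 0.015 over all genes. Arrays did not overlap for 22 genes in favour of anisomycin and for 2, Fbl and Nhp2, in favour of imiquimod, against 21.4% and 17.9% of all genes. The largest differences were those of Tsr1 (0.58, SE 0.082, adjusted p = 0.00187), Nop56 (0.56, SE 0.067, adjusted p = 0.000825), Nob1 (0.50, SE 0.071, adjusted p = 0.0019) and Nop14 (0.48, SE 0.064, adjusted p = 0.00131). By role, 7 of the 13 small subunit genes were higher with anisomycin, with a median of 0.31, and 3 of the 10 large subunit genes, Nop2, Grwd1 and Nip7, with a median of 0.16. The other 4 of the 7 small subunit genes were Rrp9 at 0.39, Wdr43 at 0.46, Wdr75 at 0.38 and Heatr1 at 0.31. Mybbp1a at 0.47, Ddx21 at 0.30, Polr1c at 0.21 and Myc at 0.26 were also called. Within the box C/D particle Nop56 and Nop58 were higher with anisomycin, Nop58 by 0.45 (SE 0.12), and Fbl with imiquimod, by a log2 difference of -0.22 (SE 0.064, adjusted p = 0.0404). The second probe set of Fbl did not show this, at -0.081, and with the mean of both probe sets the adjusted p was 0.257.

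Of the 22 genes not called between the treatments, some had narrow intervals around the difference. For Nolc1 the 95% interval of the difference between treatments was -0.19 to 0.19. For Polr1b the interval was -0.15 to 0.16, for Bop1 -0.21 to 0.038 and for Gar1 -0.17 to 0.14. For Dkc1 it was wider, -0.21 to 0.46. The intervals of other uncalled genes left out equality of the treatments. They lay below it for Nhp2 (-0.40 to -0.011) and Ncl (-0.39 to -0.013). They lay above it for Polr1a (0.0078 to 0.39), Utp15 (0.042 to 0.29) and Rrp12 (0.013 to 0.46). The number of calls moved when an array was left out, while the median difference over the 39 genes stayed at 0.15 to 0.21. The number called was 8 to 10, in place of 17, without anisomycin replicate 1 (8), anisomycin replicate 2 (10), or imiquimod replicate 1 (9), 2 (10) or 3 (10), and over all genes the share called then fell from 20.4% to between 12.7% and 13%. The calls of 8 genes, all higher with anisomycin, held in each of 20 alternative settings or left-out arrays, and these were Nop56, Mybbp1a, Rrp9, Nop14, Nob1, Tsr1, Nop2 and Grwd1.

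**Figure D3:**
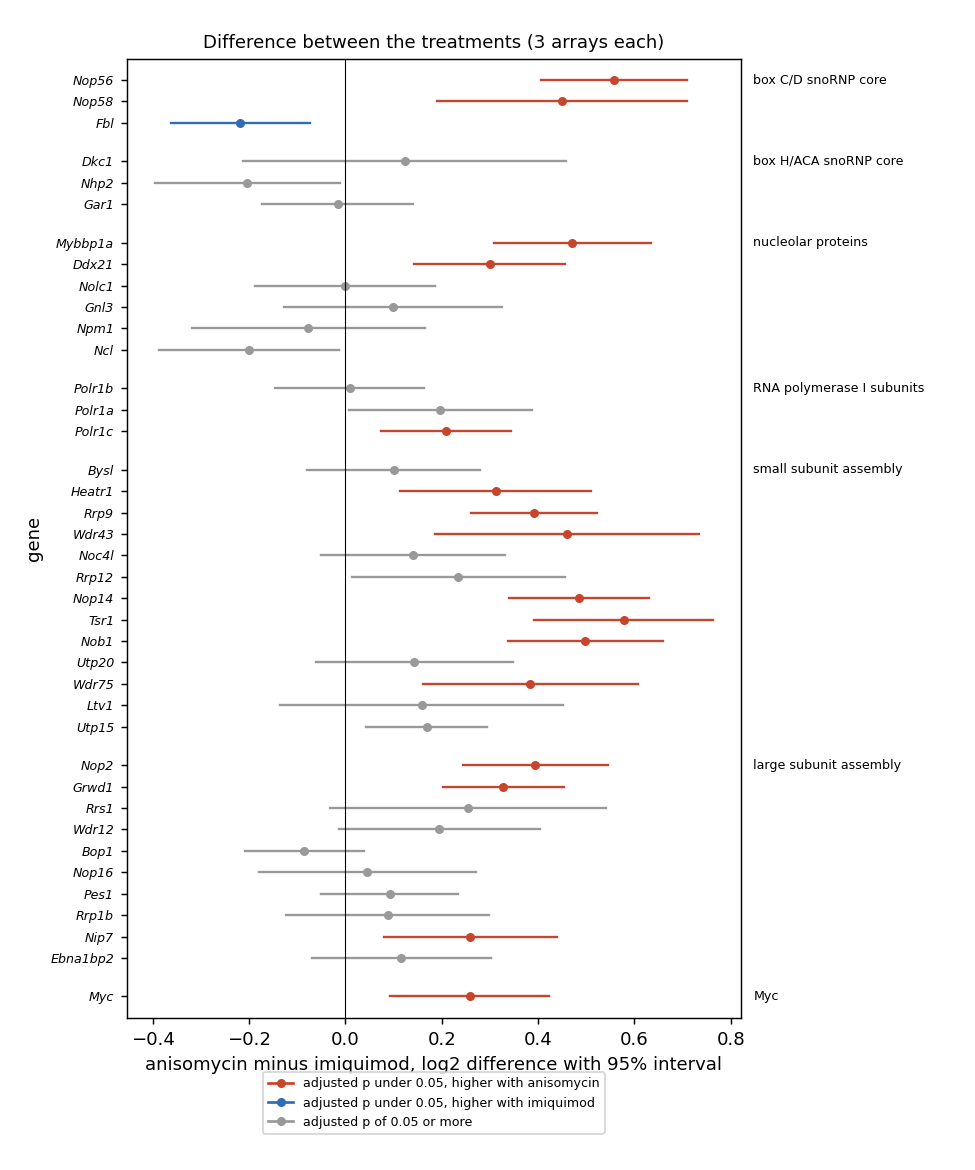
Anisomycin minus imiquimod log2 difference (horizontal axis) for each gene, with the 95% interval from limma, genes sorted by role. Of the 39 genes 16 are called higher with anisomycin (red) and 1, Fbl, with imiquimod (blue), and the remaining 22 (grey) are not called.

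The rest of the pathway was read from a further list of 160 genes, of which 153 were measured. This list was also chosen with earlier results of these data known. With anisomycin 125 of the 153 rose and 1 fell, and with imiquimod 114 rose and 4 fell, with medians of 0.55 and 0.41. Of all genes 22.3% rose and 23.3% fell with anisomycin, and 20.4% rose and 22.4% fell with imiquimod. The counts of each list below stand beside these shares. For RNA polymerase I and its factors the picture was mixed, with 9 of 17 higher and 1 lower for anisomycin and 8 higher and 2 lower for imiquimod. Taf1d, a subunit of the promoter selectivity factor of RNA polymerase I, measured 9.49, 9.52 and 9.50 in vehicle, 10.89, 11.10 and 11.17 with anisomycin and 11.00, 11.01 and 10.84 with imiquimod ears, rises of 1.55 (SE 0.078) and 1.45 (SE 0.078). Taf1b, of the same factor, was lower, with differences of -0.29 and -0.27 (SE 0.072), and Taf1a was lower with imiquimod, at -0.61 (SE 0.083), and not called with anisomycin, at -0.076. The difference of Taf1a between the treatments was 0.53 (limma adjusted p = 0.00269). Rrn3, which recruits the polymerase, rose by 0.97 and 0.78 (SE 0.10), and the polymerase subunit Polr1e by 0.77 and 0.67 (SE 0.13).

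Among the other snoRNP genes 9 of 11 rose with anisomycin and 8 with imiquimod. Nufip1, which acts in box C/D particle assembly, rose by 1.35 and 0.54 (SE 0.10) and had a difference of 0.81 between the treatments (adjusted p = 0.00101). The helicase-like assembly gene Ruvbl2 rose by 0.98 and 0.97 (SE 0.072). Of 48 other small subunit genes 42 rose with anisomycin and 38 with imiquimod, led by Utp4 at 1.77 and 1.25 (SE 0.087) and by Pno1, the partner of Nob1, at 1.65 and 1.29 (SE 0.063). Fcf1 was lower with imiquimod, at -0.29 (SE 0.095). Of 51 other large subunit genes 43 and 40 rose. Ccdc86 rose by 1.54 and 1.17 (SE 0.14), Eif6, which keeps the subunits apart, by 1.49 and 1.04 (SE 0.091), and Lyar by 1.44 and 1.47 (SE 0.13). Nop53 was lower with imiquimod, at -0.30 (SE 0.062), and not called with anisomycin, at -0.16. Of 26 genes of the RNA exosome and of end processing 22 and 20 rose, among them Rpp38, a protein of ribonuclease P, by 1.24 and 0.58 (SE 0.12) and Rpp25 by 0.88 and 0.96 (SE 0.089).

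Between the treatments 29 of these 153 genes were higher with anisomycin and 2 lower, together 20.3%, where 20.4% of all genes were called, 10.8% higher and 9.59% lower. The largest differences were Nufip1, given above, and Rpp38 at 0.66 (SE 0.12). In the large subunit list they were Gnl2 at 0.65 (SE 0.070), Nmd3, the export adaptor of the large subunit, at 0.65 (SE 0.069) and Gtpbp4 at 0.64 (SE 0.086). In the small subunit list Riok2, a kinase of late small subunit precursors, stood at 0.61 (SE 0.14) and Ddx52 at 0.56 (SE 0.12). The 2 that were lower were the exosome genes Exosc7 at -0.33 and Exosc5 at -0.20 (SE 0.094 and 0.062). In place of these 31 calls there were 18, 19 and 20 without imiquimod replicate 1, anisomycin replicate 1 and imiquimod replicate 2. The shares of all genes called were then 12.7%, 13% and 12.8%.

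Of 19 listed small nucleolar RNAs 6 were measured, and 1 rose and 3 fell with each treatment. These are too few to set against the shares of all genes. Those shares were 22.3% higher and 23.3% lower with anisomycin, and 20.4% higher and 22.4% lower with imiquimod. Snord82, which lies in an intron of Ncl, measured 9.80, 10.05 and 9.74 in vehicle, 9.07, 9.13 and 8.79 with anisomycin and 9.18, 9.38 and 8.95 with imiquimod ears, changes of -0.86 (SE 0.13) and -0.69 (SE 0.13), while Ncl rose. Snord57, from an intron of Nop56 and named after its values were seen, for its host gene, changed by -0.25 and -0.35 (SE 0.074). Snord53, from an intron of Wdr43, rose by 0.33 and 0.45 (SE 0.093). The U8 RNA (Snord118), which acts in large subunit processing, measured 9.98, 10.41 and 9.94 in vehicle ears, 9.09, 8.90 and 9.01 with anisomycin and 9.74, 9.77 and 9.33 with imiquimod, with a difference of -0.61 between the treatments (limma adjusted p = 0.0183). Of the 3 measured snoRNA host RNAs, Snhg5 rose by 0.30 and 0.49 (SE 0.067), and the others were not called.

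The promoters of these genes were searched for 2 motifs, CACGTG, the E-box bound by Myc with Max, and CCGGAAG, a core bound by factors of the ETS family. The window was the 250 bases before the annotated start, from RefSeq on build GRCm38.p6, and both strands were read. Of the 40 listed genes 34 had a promoter in the table. CCGGAAG stood in the window of 9 of the 34, or 26.5%, against 10.7% of 15614 genes tested on the array that had a promoter. CACGTG stood in 1 of the 34, or 2.94%, against 8.11%, a count too small to set against that share. Of 131 other ribosome biogenesis genes with a promoter, 33.6% held CCGGAAG and 9.92% CACGTG. A match of letters is a description of the window and not a bound site. Each stretch printed is a match with up to 30 bases on each side, 5′ to 3′ on the gene's strand, and capitals mark the motifs. Only stretches that overlapped no annotated gene span are printed. Nop2 carried both motifs, and Ltv1 carried CCGGAAG on each strand and is shown by the one read on the gene's strand. The stretches of Gar1, Polr1c and Grwd1 overlapped an annotated gene span and are not shown. That span was the gene's own for Gar1 and Grwd1, and Yipf3 for Polr1c.
Nhp2, chr11:51619720-51619772, plus strand: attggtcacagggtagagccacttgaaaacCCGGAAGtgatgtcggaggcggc
Nolc1, chr19:46075803-46075846, plus strand: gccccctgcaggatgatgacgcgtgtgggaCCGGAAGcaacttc
Heatr1, chr13:12395329-12395374, plus strand: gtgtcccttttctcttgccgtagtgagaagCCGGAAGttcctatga
Ltv1, chr10:13193199-13193265, minus strand: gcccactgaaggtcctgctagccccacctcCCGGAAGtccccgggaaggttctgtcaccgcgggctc
Nop2, chr6:125131793-125131858, plus strand: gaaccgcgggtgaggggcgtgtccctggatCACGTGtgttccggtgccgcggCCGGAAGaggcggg
Nip7, chr8:107056744-107056810, plus strand: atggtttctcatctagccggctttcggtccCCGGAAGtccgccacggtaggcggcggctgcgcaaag
The matches ended between 8 bases (Nolc1) and 97 bases (Nip7) before the start. The genes shown did not share 1 size of response, with anisomycin differences from vehicle of 1.54 for Nop2, 1.29 for Heatr1, 1.22 for Nolc1, 0.78 for Nhp2, 0.73 for Ltv1 and 0.60 for Nip7.

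Markers of cell types moved in the same arrays, and their part in the results above was not tested. All 12 measured markers of cycling cells rose with both treatments, against 22.3% of all genes with anisomycin and 20.4% with imiquimod. The median of these markers relative to vehicle was 0.75, 1.26 and 1.48 on the anisomycin arrays and 1.81, 1.75 and 1.82 on the imiquimod arrays. Between the treatments 9 of the 12 were lower with anisomycin and none higher, whereas 16 of the 39 ribosome biogenesis genes were higher. Endothelial markers went the other way, with 3 of 9 called higher with anisomycin and none lower, no overlap of arrays in all 9 and a median of 0.34. Of all genes 10.8% were called higher and 9.59% lower with anisomycin than with imiquimod. For 21.4% of all genes every anisomycin array lay above every imiquimod array. Their mean level per array was 7.09 to 7.497 in vehicle, 7.19 to 7.48 in anisomycin and 6.84 to 6.97 in imiquimod ears. Of 7 adipocyte markers 1 was called lower with anisomycin than with imiquimod, with a median of -0.39, and all 7 fell against vehicle with either treatment. Every anisomycin array lay below every imiquimod array for all 7 adipocyte markers and all 12 cycling cell markers, against 17.9% of all genes. Anisomycin replicate 1, the lowest treated array for cycling markers, stood at 0.91 for the ribosome biogenesis genes, beside 0.93 and 0.90 for the other anisomycin arrays. Mki67 measured 8.59, 7.88 and 8.21 in vehicle, 8.55, 9.14 and 9.40 with anisomycin and 9.90, 9.99 and 9.94 with imiquimod ears, so anisomycin replicate 1 lay within the vehicle range for this marker of dividing cells. Most of the list differed from Mki67 on that array, where 10 of the 12 cycling cell markers lay above all 3 vehicle arrays.

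Of 12 keratinocyte markers 5 rose and 3 fell with anisomycin and 6 rose and 2 fell with imiquimod, and their mean level per array was 10.96 to 11.26 in vehicle, 11.17 to 11.38 in anisomycin and 11.29 to 11.37 in imiquimod ears. Of all genes 22.3% rose and 23.3% fell with anisomycin, and 20.4% rose and 22.4% fell with imiquimod, for this and the following marker lists. The defining keratin Krt14 rose by 0.80 and 0.67, and Krt15 was lower, at -2.46 and -2.54. Neutrophil markers rose in 8 of 10 cases with either treatment, with mean levels of 5.07 to 5.15 in vehicle, 7.41 to 7.77 in anisomycin and 7.73 to 7.79 in imiquimod ears. Of 12 markers of monocytes and macrophages 10 rose and 1 fell with anisomycin and 9 rose with imiquimod, with mean levels of 7.73 to 7.89 in vehicle, 8.83 to 8.96 in anisomycin and 8.86 to 8.88 in imiquimod ears. Both lists also differed between the treatments, where 20.4% of all genes were called. Of the 10 neutrophil markers 3 were higher and 4 lower with anisomycin than with imiquimod. Of the 12 monocyte and macrophage markers 5 were higher and 3 lower. All 12 skeletal muscle markers fell, with mean levels of 9.47 to 10.23 in vehicle, 7.814 to 8.004 in anisomycin and 7.53 to 8.15 in imiquimod ears, and 7 of 9 fibroblast markers fell with either treatment. Vehicle replicate 2, lowest for most ribosome biogenesis genes, was the highest vehicle array for muscle markers, 0.44 above the vehicle mean, and the lowest for keratinocyte markers, at -0.15, and for cycling cell markers, at -0.22. Without vehicle replicate 2 all 39 genes were still above vehicle on average, and 38 and 38 were called for anisomycin and imiquimod.

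**Figure D4:**
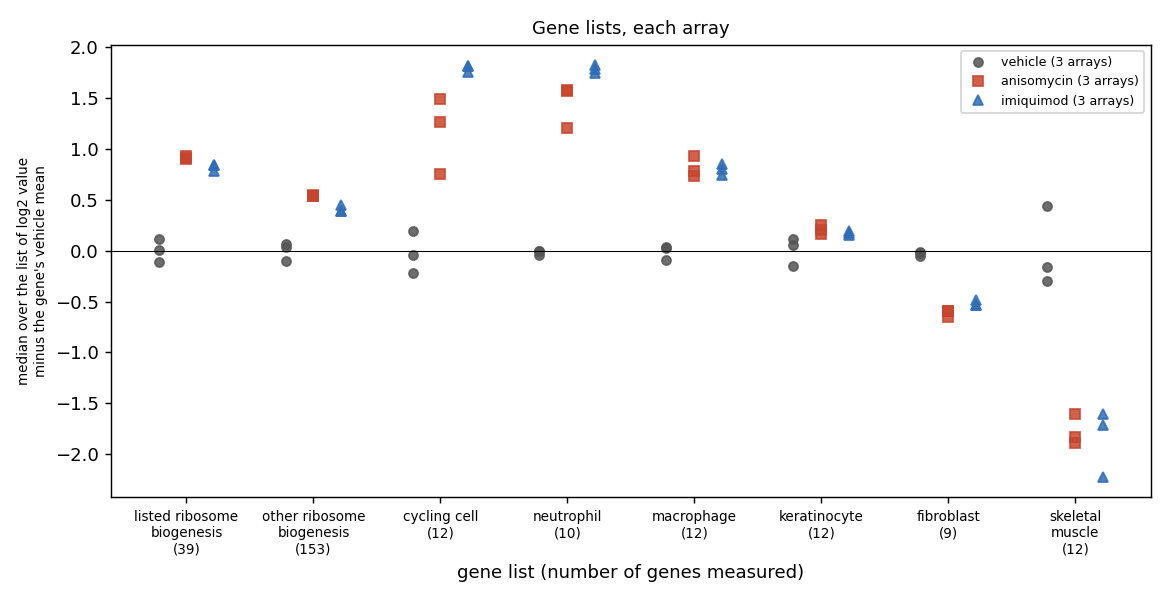
Median over each gene list of the log2 value minus the gene's vehicle mean (vertical axis), for each of the 9 arrays, with the number of genes measured under each list. The ribosome biogenesis genes lie at 0.90 to 0.93 on anisomycin and 0.78 to 0.84 on imiquimod arrays, while the cycling cell markers lie lower with anisomycin than with imiquimod.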

How the data were processed

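Total RNA of 9 ear skin samples was labelled with biotin and read on Affymetrix Mouse Gene 1.0 ST arrays. The deposited values are log2 expression values per probe set, made by the authors with RMA, per the submitters' processing notes, whose version the sources do not give. The log2 scale was judged from the values, which ran from 2.39 to 13.97. Of 35556 probe sets 21789 had 1 gene symbol in the platform annotation, 1621 had several and 12146 had none, which left 19938 genes, each read by its probe set of highest mean. No value was filtered or transformed further. Groups were taken from the treatment labels. 1 limma model over the 3 groups (limma 3.58.1, R 4.3.3, moderated by eBayes, 6 residual degrees of freedom) gave each comparison, with Benjamini-Hochberg adjustment over 19938 genes and a threshold of 0.05. The script was tested on simulated data. The number of arrays limits the precision. Genes named beyond the 40 listed were, for each list and comparison, taken from the 3 called genes with the largest rise and the 2 with the largest fall, and up to 3 defining markers of a cell type. The genes and lists were chosen with earlier results of these data known. Alternatives covered the variance prior, a filter on dim genes, normalization, scaling, probe set choice, array weights, the replicate block and each array left out. Promoter sequences were taken from RefSeq (GRCm38.p6), and Fbl, Npm1, Rrp12, Bop1, Rrs1 and Myc had none in that table. Noc2l was not analysed here.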

Additional observations from a re-analysis of the deposited data

Results flagged for a closer look

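Probe sets of the listed genes that the comparisons did not use also differed from vehicle. The second probe set of Fbl was higher by 0.48 with anisomycin and 0.56 with imiquimod on the log2 scale, where the one used gave 0.61 and 0.83. The second probe set of Wdr12 was higher by 1.01 and 0.70, where the one used gave 0.93 and 0.74. For Npm1, 3 further probe sets also carried the symbol Gm15484 and cannot be assigned to 1 gene. They were higher by 0.93, 0.83 and 0.92 with anisomycin and by 1.00, 0.88 and 0.94 with imiquimod, where the probe set of Npm1 alone gave 0.79 and 0.87.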

How the results depend on the processing

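Against vehicle, the rises held in all 20 alternatives for the 38 called genes of each comparison, and Gar1 was called in 3 of them for anisomycin and 2 for imiquimod. With quantile normalization repeated the median difference was 0.80 for anisomycin and 0.76 for imiquimod, and with cyclic loess 0.81 and 0.75. Leaving out 1 array gave medians of 0.75 to 0.87 for imiquimod. Between the treatments the count of called genes was 26 with array weights and 8 to 20 with 1 array left out, and for the other ribosome biogenesis genes 82 and 18 to 45. With array weights 42.9% of all genes were called, and with 1 array left out 12.7% to 23.9%. No difference that was called reversed. Centring the arrays on stable genes lowered the share of all anisomycin calls that were higher from 49% to 37%, and centring on medians raised it to 56.4%. For imiquimod these shares were 47.7%, 36.2% and 54.7%. With the replicate number as a block 38, 38 and 13 of the 39 genes were called for anisomycin and imiquimod against vehicle and for the 2 treatments, and 123, 111 and 23 of the other genes. The shares of all genes called were then 44.8%, 41.5% and 18.7%, in the same order. Correlations between deviations of same-numbered arrays ran from r = -0.201 (replicate 1 of vehicle and anisomycin) to r = 0.196 (replicate 1 of anisomycin and imiquimod). Deviations from a mean of 3 arrays depend on each other within a group. These values therefore cannot decide whether the numbers pair the samples. The number of arrays, 3 a group, limits how small a difference can be called.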
